A study of Mus musculus with 122 samples.

Results

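Alveolar macrophages of Lip mutant mice, collected without a split by CD11b, were compared with those of Lip WT mice in the RNA set that accompanied the chromatin samples of the study. All 4 Lip and all 4 Lip WT libraries that the labels name for this set entered the comparison, 8 of the 122 samples of the series. The Lip mice were Lip/Lip and the Lip WT mice Lip +/+, both adult, of the strain C/EBPtm1.2Acle on a mixed background and untreated. Alveolar macrophages are the phagocytes that live on the inner surface of the lung. They were washed out of the airways, isolated by FACS, and their polyadenylated RNA was sequenced from the 3′ end with barcoded MARS-seq primers. The labels name no CD11b gate for these libraries, and they do not say whether each library came from 1 animal, so p-values measure the spread between libraries. The labelled design compares Cebpb mutants with their own controls. Set beside these libraries were 3 Cebpb KO (Cebpb −/−) and 3 Cebpb WT (Cebpb +/+) libraries of the same count table, from adult mice of the strain C/EBPb tm1Pfj on a mixed background. A further set of 11 Lip libraries of the same strain and age held 4 Lip CD11b low, 4 Lip CD11b high and 3 other Lip WT libraries.

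C/EBPβ is a leucine zipper transcription factor of macrophages and fat cells. A single Cebpb mRNA gives rise to long proteins, called LAP, that activate transcription, and to a short protein, called LIP, that keeps the DNA-binding domain and lacks the activating part. LIP can occupy C/EBP sites without activating the gene and can pair with other family members. Lip mutant mice carry a knock-in allele from which only LIP is made, in every cell of the animal and from before birth, whereas Cebpb KO mice make neither form. In bulk libraries fewer cells of a type and less RNA per cell cannot be told apart.

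The Lip libraries held 2990663 to 5996039 counts, and the Lip WT libraries 1207014 to 5524158. A floor of 3 counts stood for 0.5 to 1 CPM (counts scaled to the library total) in Lip and 0.543 to 2.49 CPM in Lip WT libraries, a bound that covers counting error only. All levels below are CPM after scaling by TMM, done separately for the 8 Lip and Lip WT libraries, the 6 Cebpb libraries and the 11 libraries of the split set. Lip replicate 4 and Lip WT replicate 3 stood apart. Mitochondrial genes took 0.147% and 0.146% of their counts, against 0.598 to 0.88% in the other 3 Lip and 0.881 to 1.11% in the other 3 Lip WT libraries. The second principal component, with 19.2% of the variance, set these 2 libraries apart from the other 6. Since each group held 1 of them, counts are also given without both. Markers of alveolar macrophages were present in every library. The lectin Siglecf had 107 to 200 CPM in Lip and 248 to 333 CPM in Lip WT libraries, the carbonic anhydrase Car4 512 to 903 and 428 to 606 CPM, and the chitinase-like protein Chil3 5380 to 10300 and 13700 to 20600 CPM.

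Cebpb itself (ENSMUSG00000056501, chr2:167688915-167690432, GRCm38) had 5990, 5450, 4260 and 3150 CPM in the Lip libraries, against 2980, 2950, 2150 and 3940 CPM in the Lip WT libraries. The groups overlapped, because Lip WT replicate 4 stood above Lip replicate 4, and the difference did not pass the test (log2 fold change 0.65, SE 0.26, adjusted p = 0.231). The transcript was therefore measured in both groups, and gene counts from the 3′ end do not show which protein is made from it. The Cebpb KO libraries had 9.61, 13.4 and 31.6 CPM, against 422, 529 and 507 CPM in Cebpb WT libraries, and no value of one group came near the other. The controls were not alike, with 2150 to 3940 CPM in Lip WT and 422 to 529 CPM in Cebpb WT libraries. The summed C/EBP family was 2790 to 4910 CPM in the present Lip WT, against 1150 to 1250 CPM in the split-set Lip WT libraries. Cebpa and Cebpd, relatives of Cebpb in macrophages, differed by 0.37 and -0.24 log2 units in Lip against Lip WT and were not called. None of the 6 tested members of the C/EBP family was called by edgeR or by DESeq2, and 1 was higher at an unadjusted p under 0.05.

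Of 9491 genes tested with edgeR's quasi-likelihood test, 469 (4.94%) were called between Lip and Lip WT at a Benjamini-Hochberg adjusted p under 0.05. Of these, 294 (3.1%) were higher and 175 (1.84%) lower in Lip, with median log2 fold changes of 1.98 and -1.35. The median over all tested genes was 0.01. The CPM of the 2 groups did not overlap for 455 of the 469, and for 922 (9.71%) of all tested genes. Without Lip replicate 4 and Lip WT replicate 3, 499 genes were called, 294 higher and 205 lower, and 381 were shared with the 469. The direction of those 499 was then read in the 2 libraries left out. Lip replicate 4 stood above Lip WT replicate 3 for 269 of the 294 higher genes (91.5%) and below it for 193 of the 205 lower genes (94.1%), whereas it stood above it for 51% of all tested genes. When libraries were scaled by total counts alone, the median of all genes moved to -0.118 and the calls split into 239 higher and 231 lower.

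**Figure D1:**
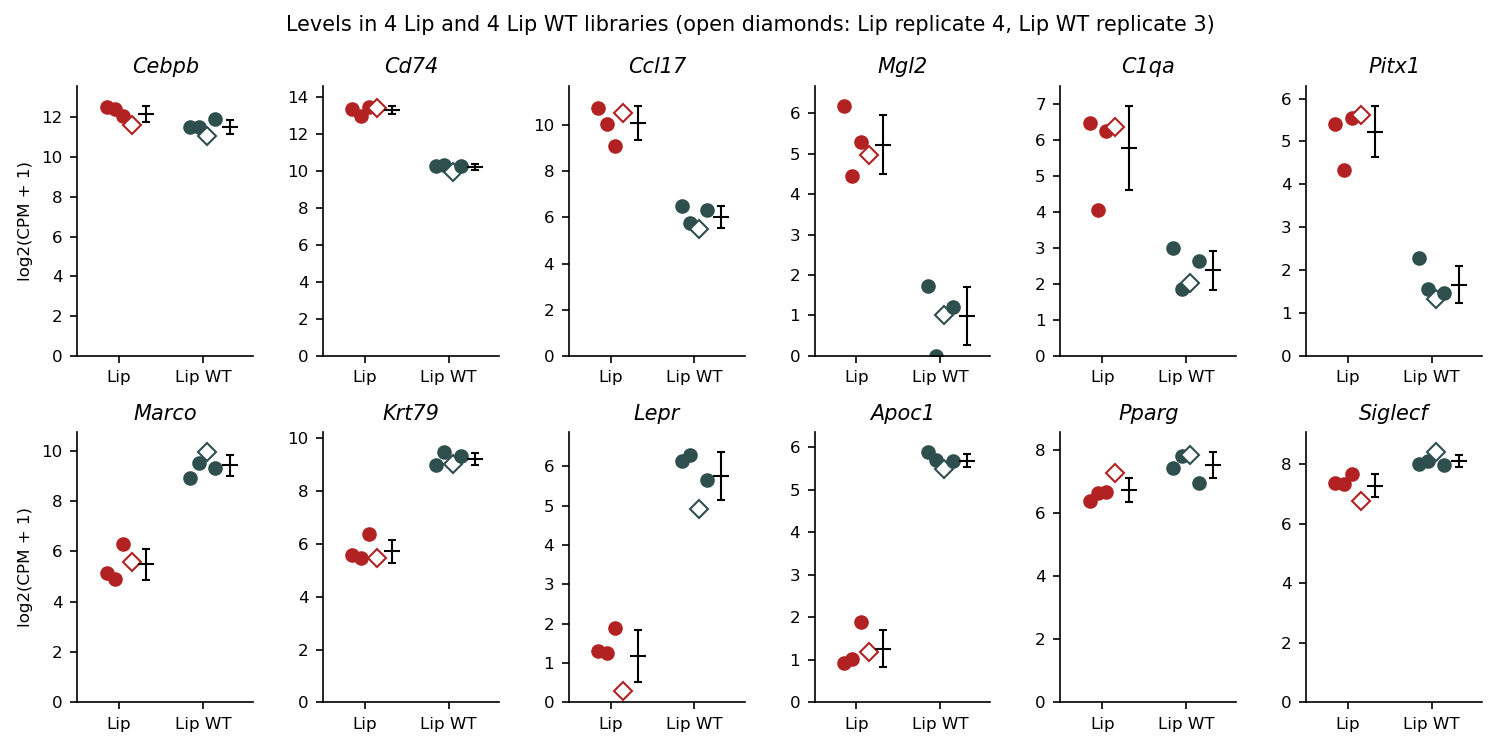
Levels of 12 genes on a log2(CPM + 1) axis, 1 point per library, with Lip left of Lip WT and the mean and SD of each group (n = 4) as a bar. Open diamonds mark Lip replicate 4 and Lip WT replicate 3. Cd74, Ccl17, Mgl2, C1qa and Pitx1 stood higher in every Lip library, Marco, Krt79, Lepr and Apoc1 lower, and Cebpb and Pparg overlapped between the groups.

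Genes of antigen presentation on MHC class II were higher in Lip macrophages. Of the 11 tested genes listed for MHC class II and co-stimulation, 9 rose and none fell, with a median log2 fold change of 2.52. The share called was 81.8%, against 4.94% over all genes. Cd74, the invariant chain that guides class II molecules to the endosome, had 10200, 7920, 11100 and 10800 CPM in the Lip libraries, against 1210, 1290, 982 and 1210 CPM in the Lip WT libraries (log2 fold change 3.09, SE 0.24, adjusted p = 3.79e-07). The lowest Lip library had 7920 CPM of Cd74 and the highest Lip WT library 1290 CPM. The class II chain H2-Aa had 18400, 13500, 19400 and 15900 CPM in the Lip libraries, against 2060, 1920, 1640 and 1850 CPM in the Lip WT libraries (log2 fold change 3.17, SE 0.24, adjusted p = 3.79e-07). Its partner chain H2-Ab1 had 13500, 9530, 15100 and 5740 CPM in the Lip libraries, against 1470, 1480, 835 and 1730 CPM in the Lip WT libraries (log2 fold change 2.99, SE 0.33, adjusted p = 1.36e-05). H2-Eb1, a further class II chain, had 7880, 5370, 6470 and 3910 CPM in the Lip libraries, against 706, 498, 452 and 798 CPM in the Lip WT libraries (log2 fold change 3.27, SE 0.29, adjusted p = 1.37e-06). For all 3 chains the groups did not overlap, and reads of near-identical H2 copies may have been split between genes. Ciita, the coactivator that switches on class II genes and chosen here after its values were seen, had 67.6, 82.9, 56.9 and 61.5 CPM in the Lip libraries, against 10.9, 8.44, 9.98 and 14 CPM in the Lip WT libraries (log2 fold change 2.63, SE 0.26, adjusted p = 4.9e-06). The members that were not called were Cd80 and H2-DMb2. The protease Ctss, which trims the invariant chain, had 16500, 10900, 25100 and 17300 CPM in the Lip libraries, against 3960, 5500, 6960 and 4350 CPM in the Lip WT libraries (log2 fold change 1.75, SE 0.29, adjusted p = 0.000813). Of the dendritic cell markers 2 were tested, and neither was called by edgeR or DESeq2 or had an unadjusted p under 0.05. The summed level of that marker list ran from 13.8 to 43.4 CPM in Lip and from 15.6 to 36.3 CPM in Lip WT libraries.

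The chemokine Ccl17, the lectin Mgl2 and the 3 C1q chains of complement were among the largest rises. Ccl17, a chemokine that attracts T cells, had 1710, 1050, 547 and 1470 CPM in the Lip libraries, against 89.7, 52.6, 43.6 and 78.2 CPM in the Lip WT libraries (log2 fold change 4.19, SE 0.36, adjusted p = 9.77e-07). Mgl2, a galactose-binding lectin of macrophages and dendritic cells, had 71.6, 21, 38.3 and 30.1 CPM in the Lip libraries, against 2.34, 0, 1.01 and 1.31 CPM in the Lip WT libraries (log2 fold change 5.15, SE 0.54, adjusted p = 9e-06). In both genes the lowest Lip library stood above the highest Lip WT library. C1qa, a chain of complement C1q that resident macrophages of other tissues make, had 88.2, 15.5, 74.2 and 81.2 CPM in the Lip libraries, against 7.02, 2.6, 3.04 and 5.24 CPM in the Lip WT libraries (log2 fold change 3.94, SE 0.50, adjusted p = 9.29e-05). Its partner chains moved alike, with log2 fold changes of 4.08 for C1qb and 4.22 for C1qc. Lip replicate 2 was the lowest Lip library in Mgl2 and in all 3 C1q chains and still lay above every Lip WT library. Of 14 tested genes of inflammatory cytokines and chemokines, Ccl17 alone rose and Il1rn, the antagonist of the interleukin 1 receptor, fell (median -0.52), a call of Il1rn that was lost in 5 of 17 alternatives. Of 14 tested markers of monocytes and macrophages of other tissues, 6 rose and none fell (median 0.28). The shares called were 14.3% in the cytokine list and 42.9% in the monocyte list, against 4.94% over all genes. Itgam, which encodes CD11b, was low in both groups, with 6.2, 4.13, 7.79 and 13.2 CPM in the Lip libraries, against 1.56, 0.649, 2.54 and 0.874 CPM in the Lip WT libraries (log2 fold change 2.28, SE 0.57, adjusted p = 0.0237). The call of Itgam was lost in some alternatives, and its lowest Lip value of 4.13 CPM lay close to its highest Lip WT value of 2.54 CPM.

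Several genes that were low in controls rose as well. Blnk, an adaptor of antigen receptor signalling known from B cells, had 49, 39.6, 86.1 and 49.6 CPM in the Lip libraries, against 3.12, 2.6, 2.37 and 2.62 CPM in the Lip WT libraries (log2 fold change 4.41, SE 0.36, adjusted p = 5.48e-07). Mfge8, which bridges dying cells to phagocytes, had 1530, 1040, 1760 and 1430 CPM in the Lip libraries, against 151, 144, 80.5 and 125 CPM in the Lip WT libraries (log2 fold change 3.53, SE 0.27, adjusted p = 3.79e-07). Ddah1, an enzyme that breaks down methylated arginine, had 31.3, 22.7, 26.8 and 31.2 CPM in the Lip libraries, against 0, 1.3, 1.69 and 0.437 CPM in the Lip WT libraries (log2 fold change 4.65, SE 0.46, adjusted p = 4.53e-06). None of these 3 genes overlapped between the groups. Cyp4a12a, a fatty acid hydroxylase known from mouse liver and kidney, had 132, 157, 232 and 131 CPM in the Lip libraries, against 4.68, 10.4, 5.41 and 10.1 CPM in the Lip WT libraries (log2 fold change 4.44, SE 0.32, adjusted p = 2.82e-07), and reads shared with its near-identical copy Cyp4a12b may have been split. Pitx1, a homeobox factor known from the hindlimb, had 41.7, 19.3, 45.4 and 48.3 CPM in the Lip libraries, against 3.9, 1.95, 1.52 and 1.75 CPM in the Lip WT libraries (log2 fold change 4.23, SE 0.42, adjusted p = 4.81e-06). Npy, a neuropeptide, had 43.7, 17.9, 96.9 and 84.8 CPM in the Lip libraries, against 0.78, 5.19, 3.55 and 1.31 CPM in the Lip WT libraries (log2 fold change 4.39, SE 0.55, adjusted p = 8.55e-05). The remaining large rises, Fstl1, Stac and H2-M2, had log2 fold changes of 4.23, 4.23 and 4.41. Lack of overlap was a condition of their choice.

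Some genes that were near 0 in the split-set Lip WT libraries were read at a low level in the present Lip WT libraries. A set of 7, chosen after their values were seen as those at 2 CPM or less in the split-set Lip WT and at 50 CPM or more in both split Lip groups, included Pitx1 and Cyp4a12a. In the present Lip WT libraries they averaged 4.68 to 9.16% of their Lip level (median 5.7%), and their median ran from 5.04 to 7.03% in the 4 libraries. Since the choice itself fixed a low share in the split set, the sets were not compared in it. In the other direction Lepr alone met these limits, and its level in the present Lip libraries was 2.58% of that in Lip WT. The Cebpb WT libraries of the same table had 0 to 6.22 CPM of the 7 genes. Up to 8 barcoded samples were combined before amplification, per the labels' protocols, and whether counts passed between libraries was not tested.

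Genes of lysosomes and of growth factor signalling rose in part. Of 26 tested lysosome and surfactant breakdown genes, 5 rose and none fell (19.2% called, against 4.94% over all genes, median 0.37). Smpd1, the acid sphingomyelinase, and Npc2, a cholesterol carrier of the lysosome, rose by 1.45 and 1.01 log2 units. Of 15 tested genes of the GM-CSF receptor and its STAT5 targets, 5 rose and 1 fell (40% called, median 0.34). GM-CSF is the growth factor on which alveolar macrophages depend. Its receptor chains Csf2ra and Csf2rb differed by 0.20 and -0.13 log2 units and were not called. Socs1, a feedback inhibitor of cytokine signalling, had 113, 92.5, 53.2 and 42.7 CPM in the Lip libraries, against 14.8, 3.89, 5.24 and 11.8 CPM in the Lip WT libraries (log2 fold change 3.15, SE 0.41, adjusted p = 8.95e-05). Irf4, a transcription factor induced in alternatively activated macrophages and dendritic cells, had 38.3, 25.5, 20.7 and 41 CPM in the Lip libraries, against 3.12, 2.6, 4.4 and 6.99 CPM in the Lip WT libraries (log2 fold change 2.81, SE 0.37, adjusted p = 9.85e-05). Both stood above every Lip WT library in all 4 Lip libraries.

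Markers of other cells moved in both directions. Of the 13 lymphocyte markers in the table, Cd4 and Il7r passed the filter on low counts and both rose. Cd4, the co-receptor of helper T cells, had 68.9, 22.4, 24.7 and 47.2 CPM in the Lip libraries, against 5.46, 0.649, 1.01 and 2.62 CPM in the Lip WT libraries (log2 fold change 4.31, SE 0.54, adjusted p = 5.59e-05). Il7r, the interleukin 7 receptor, had 7.11, 7.57, 5.76 and 7.26 CPM in the Lip libraries, against 0, 0.649, 0.845 and 0.437 CPM in the Lip WT libraries (log2 fold change 3.46, SE 0.61, adjusted p = 0.0016). The summed lymphocyte markers ran from 29.9 to 76.4 CPM in Lip and from 1.3 to 5.46 CPM in Lip WT libraries. The T cell receptor component Cd3e was at 0 in 2 Lip and 3 Lip WT libraries and no higher than 1.36 CPM in the others. Of the 13 neutrophil markers 4 were tested and 3 fell (75% called, against 4.94% over all genes). The summed neutrophil markers were 20.3 to 36.1 CPM in Lip and 95.2 to 122 CPM in Lip WT libraries. Csf3r, the G-CSF receptor, had 10.9, 4.13, 6.78 and 5.13 CPM in the Lip libraries, against 42.9, 32.5, 37.5 and 52.9 CPM in the Lip WT libraries (log2 fold change -2.59, SE 0.33, adjusted p = 7.74e-05). The chemokine receptor Cxcr2 had 0.182, 3.78, 2.03 and 0.214 CPM in the Lip libraries, against 16.4, 14.3, 12.3 and 18.8 CPM in the Lip WT libraries (log2 fold change -3.47, SE 0.65, adjusted p = 0.00273). The summed epithelial markers were 137 to 320 CPM in Lip and 83.9 to 96.1 CPM in Lip WT libraries. Within that list Epcam, an adhesion molecule, had 169, 256, 113 and 288 CPM in the Lip libraries, against 52.3, 44.1, 35.7 and 52 CPM in the Lip WT libraries (log2 fold change 2.18, SE 0.29, adjusted p = 9.79e-05). Stroma and endothelium markers summed to 121 to 177 CPM in Lip and 56.2 to 90.9 CPM in Lip WT libraries, with Vwf as the single member tested and called. Eosinophil, mast cell and basophil markers were at 0 in all Lip libraries and reached 1.3 CPM in Lip WT libraries. The part of other cells in the results was not tested.

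**Figure D2:**
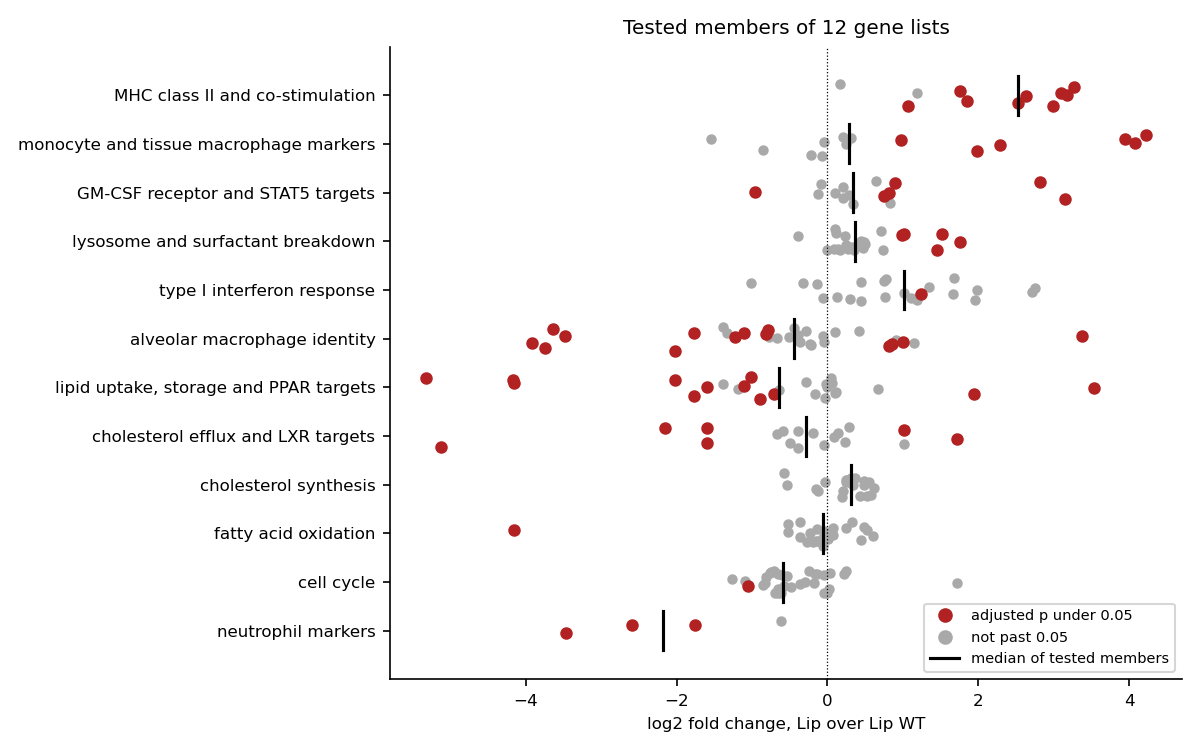
Log2 fold changes of the tested members of 12 gene lists, Lip over Lip WT. Each point is a gene, red where the adjusted p was under 0.05, and the vertical bar is the median of the list, for example 2.52 for MHC class II and co-stimulation and -0.64 for lipid uptake, storage and PPAR targets.

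The identity genes of alveolar macrophages were changed in part. Of 31 tested members of that list 10 fell and 4 rose, with a median of -0.45. Marco, a scavenger receptor for inhaled particles, had 34.3, 28.9, 78.3 and 46.8 CPM in the Lip libraries, against 487, 735, 977 and 637 CPM in the Lip WT libraries (log2 fold change -3.92, SE 0.33, adjusted p = 8.64e-07). Krt79, a keratin that marks these cells, had 46.8, 42.7, 81.7 and 42.9 CPM in the Lip libraries, against 513, 704, 524 and 646 CPM in the Lip WT libraries (log2 fold change -3.48, SE 0.27, adjusted p = 3.79e-07). The highest Lip value of these markers was 81.7 CPM, and the lowest Lip WT value 487 CPM. Ear1, a ribonuclease of the eosinophil-associated family with near-identical copies, had 24.6, 21.7, 49.1 and 35.3 CPM in the Lip libraries, against 378, 356, 552 and 340 CPM in the Lip WT libraries (log2 fold change -3.64, SE 0.29, adjusted p = 5.48e-07). Flt1, a receptor for VEGF, had 14.4, 25.1, 28.8 and 45.5 CPM in the Lip libraries, against 431, 360, 366 and 365 CPM in the Lip WT libraries (log2 fold change -3.74, SE 0.30, adjusted p = 5.48e-07). Ear6, a relative of Ear1, went the other way, with 26.1, 29.6, 43.4 and 30.1 CPM in the Lip libraries, against 2.34, 2.6, 4.23 and 2.19 CPM in the Lip WT libraries (log2 fold change 3.37, SE 0.35, adjusted p = 9e-06). Reads of this ribonuclease family may have been split between its members.

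Other defining genes had smaller differences. Siglecf had 163, 161, 200 and 107 CPM in the Lip libraries, against 254, 270, 333 and 248 CPM in the Lip WT libraries (log2 fold change -0.81, SE 0.23, adjusted p = 0.048). The groups did not overlap in Siglecf, but its call was lost in 10 of 17 alternatives. Chil3 had 7740, 6700, 10300 and 5380 CPM in the Lip libraries, against 13700, 20600, 19600 and 16700 CPM in the Lip WT libraries (log2 fold change -1.23, SE 0.26, adjusted p = 0.0072). Itgax, the integrin CD11c of alveolar macrophages and dendritic cells, had 1030, 981, 1000 and 720 CPM in the Lip libraries, against 509, 527, 585 and 448 CPM in the Lip WT libraries (log2 fold change 0.85, SE 0.21, adjusted p = 0.0235), a call that was lost in some alternatives. Car4 had 542, 643, 512 and 903 CPM in the Lip libraries, against 428, 458, 606 and 444 CPM in the Lip WT libraries and was not called (log2 fold change 0.42, SE 0.23, adjusted p = 0.473). Pparg, the nuclear receptor that alveolar macrophages need to mature, had 81.6, 98, 100 and 154 CPM in the Lip libraries, against 171, 224, 228 and 124 CPM in the Lip WT libraries. Lip replicate 4 stood above Lip WT replicate 4 in Pparg, so the groups overlapped, and the difference was not called (log2 fold change -0.78, SE 0.25, adjusted p = 0.104). Of the 10 markers used to check the cell type, 5 fell, 1 rose and 4 were not called. Over all tested genes 1.84% fell and 3.1% rose.

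Genes of lipid uptake and storage fell more often than they rose. Of 25 tested members of the lipid uptake, storage and PPAR target list 10 fell and 2 rose, with a median of -0.64. The share called was 48%, against 4.94% over all genes. Lepr, the leptin receptor, had 1.46, 1.38, 2.71 and 0.214 CPM in the Lip libraries, against 68.6, 76.6, 29.4 and 49 CPM in the Lip WT libraries (log2 fold change -5.32, SE 0.48, adjusted p = 1.65e-06). Apoc1, an apolipoprotein of the exchangeable class and a target of LXR receptors, had 0.911, 1.03, 2.71 and 1.28 CPM in the Lip libraries, against 57.7, 50.6, 43.8 and 50.3 CPM in the Lip WT libraries (log2 fold change -5.12, SE 0.36, adjusted p = 2.27e-07). Acaa1b, a peroxisomal thiolase, had 16.9, 17.5, 33.9 and 25 CPM in the Lip libraries, against 319, 521, 340 and 472 CPM in the Lip WT libraries (log2 fold change -4.15, SE 0.29, adjusted p = 2.27e-07). In these 3 genes no Lip library came within reach of the lowest Lip WT library. G0s2, an inhibitor of the triglyceride lipase ATGL, had 4.01, 3.78, 3.39 and 3.42 CPM in the Lip libraries, against 63.2, 68.1, 31.6 and 106 CPM in the Lip WT libraries (log2 fold change -4.17, SE 0.37, adjusted p = 1.25e-06). Cidec, which fuses lipid droplets, had 113, 115, 111 and 67.7 CPM in the Lip libraries, against 376, 473, 365 and 437 CPM in the Lip WT libraries (log2 fold change -2.02, SE 0.23, adjusted p = 2.14e-05). Fabp4, a fatty acid carrier, had 27.9, 19.9, 45.4 and 66.9 CPM in the Lip libraries, against 114, 74.6, 232 and 123 CPM in the Lip WT libraries (log2 fold change -1.77, SE 0.38, adjusted p = 0.009). The groups did not overlap in any of them. Fabp1, another fatty acid carrier, and the scavenger receptor Cd36 had log2 fold changes of -1.39 and -1.19 and were not called (adjusted p = 0.112 and 0.141). Lpl, the lipoprotein lipase, fell as well, with 533, 467, 765 and 661 CPM in the Lip libraries, against 1280, 950, 1390 and 1580 CPM in the Lip WT libraries (log2 fold change -1.10, SE 0.24, adjusted p = 0.00846). Lrg1, a secreted glycoprotein outside these lists, had 5.1, 5.16, 11.9 and 7.26 CPM in the Lip libraries, against 158, 211, 145 and 192 CPM in the Lip WT libraries (log2 fold change -4.60, SE 0.30, adjusted p = 1.74e-07).

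In wild-type alveolar macrophages of C57BL/6 mice a C/EBPβ-bound region lay within 10 kb of 62.2% of all tested genes. The shares by direction and the regions near named genes are given further on. The promoters of Ear1, Cidec, Pparg and Ffar2 held both a C/EBPβ-bound region and a C/EBP motif. The 250 bases before the annotated start are shown from RefSeq (GRCm38.p6), 5′ to 3′ toward the gene, in lower case, with matches to the motif TTGCNNAA or its reverse complement TTNNGCAA in capitals. For Cidec this was 1 of 2, for Pparg 1 of 3 and for Ffar2 1 of 4 annotated start sites, which gene counts do not separate.
Ear1, chr14:43819640-43819889, minus strand: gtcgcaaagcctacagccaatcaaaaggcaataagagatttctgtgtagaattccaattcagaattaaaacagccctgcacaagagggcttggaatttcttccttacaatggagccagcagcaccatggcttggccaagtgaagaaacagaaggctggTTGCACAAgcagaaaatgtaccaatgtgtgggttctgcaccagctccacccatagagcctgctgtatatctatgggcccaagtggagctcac
Cidec, chr6:113434765-113435014, minus strand: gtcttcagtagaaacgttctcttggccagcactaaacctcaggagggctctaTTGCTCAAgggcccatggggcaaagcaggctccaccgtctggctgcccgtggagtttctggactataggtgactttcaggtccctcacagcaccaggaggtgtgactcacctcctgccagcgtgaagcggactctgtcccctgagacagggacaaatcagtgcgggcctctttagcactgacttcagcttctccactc
Pparg, chr6:115421816-115422065, plus strand: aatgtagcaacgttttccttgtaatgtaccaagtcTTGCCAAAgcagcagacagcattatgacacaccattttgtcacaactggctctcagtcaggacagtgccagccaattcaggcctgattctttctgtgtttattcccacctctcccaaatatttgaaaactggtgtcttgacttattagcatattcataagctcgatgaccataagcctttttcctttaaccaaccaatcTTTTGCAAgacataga
Ffar2, chr7:30823776-30824025, minus strand: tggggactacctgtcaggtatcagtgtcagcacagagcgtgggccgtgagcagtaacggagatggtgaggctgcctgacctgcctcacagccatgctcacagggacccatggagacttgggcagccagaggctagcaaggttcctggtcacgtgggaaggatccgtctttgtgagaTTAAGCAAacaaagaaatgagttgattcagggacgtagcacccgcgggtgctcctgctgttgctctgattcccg
Ear1 and Cidec fell in Lip macrophages by the values above, and Pparg, whose window held 2 matches, was not called. Ffar2, a receptor for short-chain fatty acids, rose (log2 fold change 1.13) and had a region and a match in all 4 of its windows. Lepr and the neutrophil-list gene Mmp8, which fell, also had a window with both, and the call of Mmp8 was lost in 5 of 17 alternatives. Promoter windows were matched for 136 genes lower in Lip, 212 higher in Lip and 7503 of all tested genes. Of these, 11 lower genes (8.09%), 6 higher genes (2.83%) and 349 of all tested genes (4.65%) had both. For this count the motif and the region could lie in different windows of a gene. Of all 32851 promoter windows in the table, from 250 bases before to 50 after a start, 10.8% held the motif on either strand.

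Cholesterol genes divided by role. Of 18 tested genes of cholesterol efflux and of LXR targets, 4 fell and 2 rose (median -0.29). Apoe, the apolipoprotein that accepts cholesterol from macrophages, had 66.5, 39.6, 19.3 and 25 CPM in the Lip libraries, against 180, 140, 161 and 190 CPM in the Lip WT libraries (log2 fold change -2.15, SE 0.32, adjusted p = 0.000327). Nr1h3, which encodes the receptor LXRα, had 7.84, 6.88, 14.2 and 12.8 CPM in the Lip libraries, against 42.9, 27.3, 28.6 and 28.8 CPM in the Lip WT libraries (log2 fold change -1.60, SE 0.31, adjusted p = 0.00405). Ch25h, which makes 25-hydroxycholesterol, rose, with 1500, 906, 797 and 467 CPM in the Lip libraries, against 314, 320, 250 and 240 CPM in the Lip WT libraries (log2 fold change 1.71, SE 0.30, adjusted p = 0.00133). The efflux pumps Abca1 and Abcg1 had log2 fold changes of -0.50 and -0.39 and were not called. None of 21 tested cholesterol synthesis genes was called by edgeR or by DESeq2, and none had an unadjusted p under 0.05 (median 0.31, range -0.58 to 0.61). Of 24 fatty acid oxidation genes Acaa1b alone was called (median -0.06). The shares called were 33.3% for efflux and LXR targets and 4.17% for fatty acid oxidation, against 4.94% over all genes.

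Growth, interferon, antioxidant and stress lists each held at most 1 call. The shares called were 2.94% for cell cycle, 4.35% for type I interferon, 0% for NRF2 and 7.14% for stress genes, against 4.94% over all genes. Of 34 tested cell cycle genes Mcm5, a helicase subunit, fell and none rose, with a median of -0.59. More genes of this list were called in the split Lip libraries, as given further on. Mki67, the proliferation marker Ki-67, had 14.6, 33, 19.3 and 79.5 CPM in the Lip libraries, against 41.3, 28.6, 109 and 47.2 CPM in the Lip WT libraries and was not called (log2 fold change -0.66, SE 0.51, adjusted p = 0.681). Lip replicate 4 and Lip WT replicate 3 were the highest libraries of their groups in Mki67. Of 23 tested type I interferon genes Bst2, which tethers virus particles, rose (log2 fold change 1.24, SE 0.33, adjusted p = 0.0338). The median of that list was 1.02, 8 members were higher at an unadjusted p under 0.05 and none lower, and DESeq2 called 1. None of 17 antioxidant genes of the NRF2 list was called by edgeR or by DESeq2, and at an unadjusted p under 0.05 1 was higher and 2 lower. Of 14 genes of stress and tissue dissociation the immediate early gene Jun fell and none rose. The calls of Mcm5, Bst2 and Jun were each lost in some alternatives.

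The Lip effect was then set beside the loss of Cebpb in the same count table. Between Cebpb KO and Cebpb WT 2795 of 10262 genes (27.2%) were called, 1497 (14.6%) higher and 1298 (12.6%) lower, although this comparison had 3 libraries a group. The 4 groups share no library. Of the genes higher in Lip and tested in both, 190 of 263 (72.2%, and 16.2% of the 1176 called higher in KO) were also higher in Cebpb KO. Of the genes lower in Lip, 107 of 170 (62.9%, and 8.86% of the 1207) were also lower in KO. Another 12 genes higher in Lip were lower in KO, and 8 lower in Lip were higher in KO. The difference of the 2 effects, Lip minus KO, was called for 707 of 10595 genes (6.67%), 400 above (3.78%) and 307 below 0 (2.9%), and for all 20 of those opposite genes. Where both effects went the same way and their difference was called, KO had the larger effect for 49 of 51 higher and 27 of 29 lower genes.

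The MHC class II genes rose in both mutants. Cd74 had 6530, 3050 and 3940 CPM in Cebpb KO libraries, against 44.1, 55.8 and 192 CPM in Cebpb WT libraries, and the Lip effect was smaller by a difference of -2.44 (SE 0.54, adjusted p = 0.00775). For H2-Ab1 the difference was -3.53 (SE 0.62, adjusted p = 0.00141). The control levels were not alike, at 982 to 1290 CPM of Cd74 in Lip WT and 44.1 to 192 CPM in Cebpb WT libraries. The complement chains rose more in KO, with differences of -3.87 for C1qb and -3.41 for C1qc. C1qa had 5420, 3610 and 2480 CPM in Cebpb KO libraries, against 9.23, 15.8 and 6.97 CPM in Cebpb WT libraries, a difference of -4.53 (SE 0.75, adjusted p = 0.000922). The chemokine Ccl17 differed by -1.90 (SE 0.54, adjusted p = 0.0373), a call that was lost in 10 of 21 alternatives, and the lectin Mgl2 by -3.08 (SE 1.02, adjusted p = 0.0866), which was not called.

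Alveolar macrophage genes fell further in KO. Of 32 members of that list tested for the difference, 18 lay above 0 and 1 below, and in KO 22 of 31 members fell and 2 rose (median -3.31). The shares called were 59.4% for the difference and 77.4% in KO, against 6.67% and 27.2% over all genes. Siglecf had 9.61, 25.6 and 22.6 CPM in Cebpb KO libraries, against 378, 365 and 399 CPM in Cebpb WT libraries, a difference of 3.50 (SE 0.39, adjusted p = 4.99e-06). Pparg had 12.7, 20.9 and 23.9 CPM in Cebpb KO libraries, against 139, 201 and 231 CPM in Cebpb WT libraries, a difference of 2.52 (SE 0.40, adjusted p = 0.000305). Fabp1 had 3.76, 7.84 and 15.1 CPM in Cebpb KO libraries, against 527, 392 and 622 CPM in Cebpb WT libraries, a difference of 4.44 (SE 0.81, adjusted p = 0.00382). In these 3 genes each KO library lay far below its controls, whereas the Lip differences were smaller. Car4 had 0.418, 0 and 54 CPM in Cebpb KO libraries, against 456, 648 and 960 CPM in Cebpb WT libraries, a difference of 5.63 (SE 1.46, adjusted p = 0.0416) that was lost in 13 of 21 alternatives. Cebpb KO replicate 3 alone held more than 1 CPM of Car4, and without it 3787 genes were called between Cebpb KO and Cebpb WT. Marco and Lepr did not pass the test of the difference (2.04 (SE 1.39, adjusted p = 0.532) for Marco and 0.07 (SE 0.81, adjusted p = 0.989) for Lepr).

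Genes with opposite directions formed a small group. Ddah1 had 1.88, 2.32 and 1.72 CPM in Cebpb KO libraries, against 23.8, 9.02 and 11 CPM in Cebpb WT libraries, a difference of 7.50 (SE 0.65, adjusted p = 3.68e-07). Ear6 had 0, 0 and 2.58 CPM in Cebpb KO libraries, against 57, 41.2 and 68.4 CPM in Cebpb WT libraries, a difference of 9.21 (SE 0.79, adjusted p = 3.75e-07). Ffar2 had 318, 264, 210 and 205 CPM in the Lip libraries, against 117, 112, 110 and 116 CPM in the Lip WT libraries (log2 fold change 1.13, SE 0.21, adjusted p = 0.00268). In the other mutant it had 0.418, 0 and 1.94 CPM in Cebpb KO libraries, against 33.2, 48.8 and 44.2 CPM in Cebpb WT libraries, a difference of 6.72 (SE 0.52, adjusted p = 3.68e-07). Ch25h had 44.3, 39.8 and 88.3 CPM in Cebpb KO libraries, against 102, 161 and 268 CPM in Cebpb WT libraries (log2 fold change -1.62, SE 0.42, adjusted p = 0.0251), a call that was lost in 5 of 12 alternatives. Its difference of 3.32 (SE 0.53, adjusted p = 0.000502) passed in all 21. In each of these 4 genes all 4 Lip libraries lay above and all 3 KO libraries below their own controls. Those controls were not alike. By the values given, Ear6 and Ddah1 were lower in every Lip WT library than in every Cebpb WT library, and Ffar2 was higher. The opposite directions thus hold for each mutant against its own control.

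Apoe went down in Lip and up in KO. It had 38500, 38500 and 14300 CPM in Cebpb KO libraries, against 1300, 1630 and 1490 CPM in Cebpb WT libraries, a difference of -6.52 (SE 0.54, adjusted p = 3.68e-07). In the split set Apoe was not called in CD11b low (log2 fold change -0.93, SE 0.88, adjusted p = 0.506) or CD11b high Lip (0.94, SE 0.83, adjusted p = 0.432). The difference between unsplit and split Lip was not called for Apoe either (-2.12, SE 0.92, adjusted p = 0.393). Flt1 had 51, 54.3 and 53.8 CPM in Cebpb KO libraries, against 19.1, 33.5 and 21.6 CPM in Cebpb WT libraries, a difference of -4.84 (SE 0.41, adjusted p = 3.68e-07). The neutrophil-list genes Csf3r and Cxcr2 were higher in KO, with differences of -3.85 (SE 0.46, adjusted p = 1.11e-05) and -4.99 (SE 0.77, adjusted p = 0.000269). The KO call of Cxcr2 was lost in 3 of 12 alternatives. Summed neutrophil markers were 223 to 532 CPM in Cebpb KO and 76.6 to 166 CPM in Cebpb WT libraries. For lymphocyte markers these sums were 100 to 259 and 6.46 to 14.9 CPM. Sums of dendritic cell, erythroid, stroma, and eosinophil, mast cell and basophil markers were also higher in every KO library, and epithelial markers lower. The part of other cells in the KO results was not tested. Lrg1 and G0s2 fell in Lip and were not called in KO (log2 fold changes 1.20 and 0.74), with differences of -5.81 (SE 0.51, adjusted p = 3.75e-07) and -4.92 (SE 0.55, adjusted p = 5.38e-06). Controls differed here too. Flt1 had 360 to 431 CPM in Lip WT and 19.1 to 33.5 CPM in Cebpb WT libraries, Lrg1 145 to 211 and 11.1 to 18.8 CPM, and Apoe 140 to 190 and 1300 to 1630 CPM. The strain of the controls and their set of libraries cannot be told apart.

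**Figure D3:**
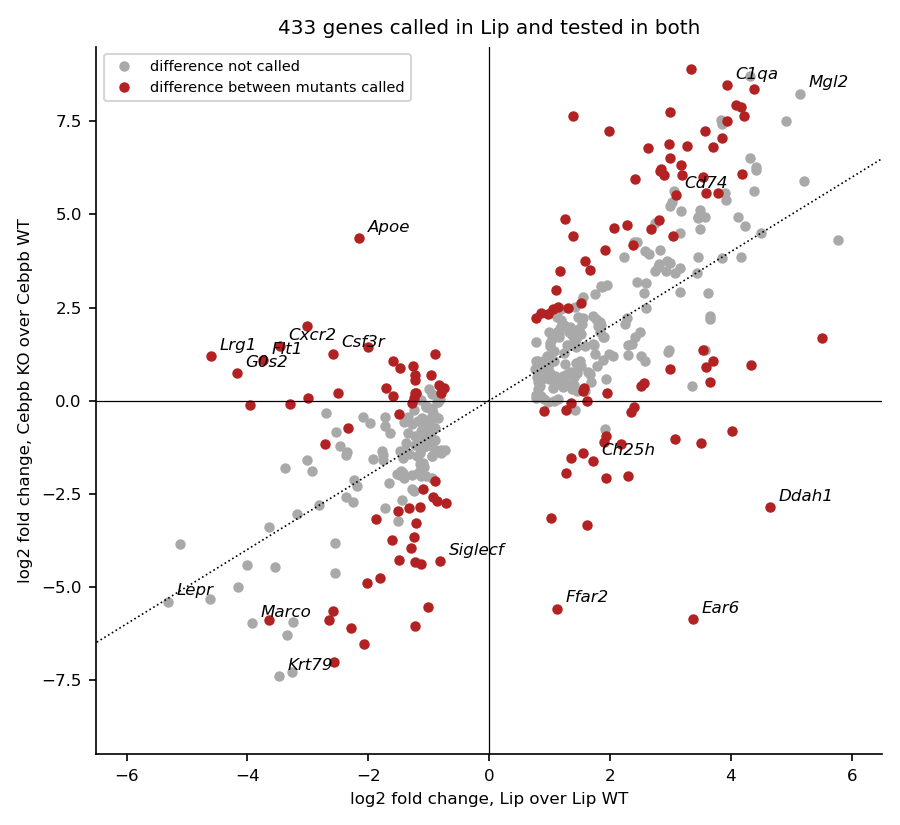
Log2 fold changes of the 433 genes called in Lip and tested in both comparisons, with Lip over Lip WT across and Cebpb KO over Cebpb WT upward; the dotted line marks equal effects. Red points are genes whose difference between mutants was called; fitted folds of genes at 0 in a group depend on the prior count. Apoe, Flt1, Cxcr2 and Csf3r lie upper left, Ear6, Ddah1, Ffar2 and Ch25h lower right.

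Several lists had more calls in KO, and the difference itself was called for fewer of their members. Of 21 cholesterol synthesis genes 15 fell in KO (median -1.20), against none called in Lip, and the difference was called for 8, all above 0. Of 24 fatty acid oxidation genes 15 fell in KO, against 1 in Lip, and the difference was called for 3, all above 0 (12.5%, against 6.67% over all genes). Of the tested cell cycle genes 30 of 37 fell in KO and 1 rose, against 1 of 34 that fell in Lip, and the difference was called for 3 of 37 (8.11%), 2 above and 1 below 0. In the split set 26 of 32 fell and 1 rose, both in CD11b low and in CD11b high Lip (medians -1.20 and -1.11). That was 84.4% called, against 25.8% and 39.3% over all genes there. The difference between unsplit and split Lip was called for 0 of 34. Of 27 type I interferon genes 26 rose in KO, against 1 of 23 in Lip, and the difference was called for 4, all below 0. These medians and counts stand beside the larger share of all genes called in KO, 27.2% against 4.94% in Lip.

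The Lip libraries of the split set gave a check in other libraries of the same genotype. There 2305 of 8918 genes (25.8%) were called between CD11b low Lip and Lip WT and 3505 (39.3%) between CD11b high Lip and the same 3 Lip WT libraries. Of the genes higher in unsplit Lip and tested there, 267 of 283 (94.3%) were higher in CD11b low and 263 (92.9%) in CD11b high, 257 in both and 10 in neither. Of the genes lower in unsplit Lip, 145 of 161 (90.1%) were lower in CD11b low and 146 (90.7%) in CD11b high, 137 in both and 7 in neither. As shares of the split-set calls in the same direction these were 22.3% and 14.9% for higher genes and 13.8% and 8.86% for lower genes. No gene called in unsplit Lip was called in the opposite direction in CD11b low, and 1 was in CD11b high, namely Ffar2 (log2 fold change -1.10).

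Beside the CD11b groups, the unsplit Lip libraries lay on no single side. Mgl2 was at 21 to 71.6 CPM in unsplit Lip, whereas CD11b low libraries held 1.51 to 12.7 CPM, CD11b high libraries 249 to 408 CPM and their Lip WT at most 0.552 CPM. C1qa was at 15.5 to 88.2 CPM in unsplit Lip, at 22.6 to 62.2 CPM in CD11b low libraries and at 365 to 827 CPM in CD11b high libraries. Itgam was at 4.13 to 13.2 CPM in unsplit Lip, at 3.01 to 5.44 CPM where CD11b was low and at 13.1 to 22.1 CPM where it was high, so the highest unsplit library just reached the lowest CD11b high library. Pparg was at 81.6 to 154 CPM in unsplit Lip, at 104 to 124 CPM in CD11b low libraries and at 48.5 to 53.9 CPM in CD11b high libraries. Thus Mgl2 lay between the groups, and C1qa and Pparg overlapped CD11b low alone. The summed MHC class II list was at 38000 to 54900 CPM in unsplit Lip, at 18300 to 29100 CPM in CD11b low and at 35200 to 55800 CPM in CD11b high libraries. The summed neutrophil markers were at 20.3 to 36.1 CPM in unsplit Lip, at 62.5 to 117 CPM in CD11b low and at 32.5 to 47 CPM in CD11b high libraries. Both sums overlapped CD11b high alone. Their Lip WT sums were not alike, so this order of levels is not one of effects against controls. The MHC class II sum was 4890 to 6980 CPM in the present Lip WT and 837 to 996 CPM in the split-set Lip WT. The neutrophil sum was 95.2 to 122 CPM in the present Lip WT and 202 to 220 CPM in the split-set Lip WT. The sets were scaled separately, so these levels are set side by side without a test.

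The size of the Lip effect was compared between the sets. The difference, unsplit Lip minus the mean of the 2 split Lip groups, each against its own Lip WT, was called for 24 of 9563 genes (0.251%), 6 above (0.0627%) and 18 below 0 (0.188%). The count depended on which libraries entered. It was 301 without Lip replicate 4 and Lip WT replicate 3, 117 without Lip WT replicate 3, 66 without Lip replicate 4, 50 without Lip replicate 2 and 38 without Lip replicate 3, and all 24 genes were among the 301. Cd74 differed by -3.29 (SE 0.27, adjusted p = 8.69e-09). It had 5900 to 17700 CPM in the split Lip libraries and 108 to 145 CPM in the split-set Lip WT, against 982 to 1290 CPM in the present Lip WT. H2-Aa, H2-Ab1 and H2-Eb1 differed by -3.42, -3.94 and -4.21. Mfge8 differed by -3.90 (SE 0.32, adjusted p = 8.69e-09), with 1590 to 2180 CPM in the split Lip libraries and 7.72 to 15.5 CPM in their Lip WT. Ccl17 differed by -3.31 (SE 0.42, adjusted p = 3.7e-05). The unsplit Lip levels of Cd74 lay within the range of the split Lip libraries, pooled over CD11b low and high. Those of Mfge8 overlapped that range and reached lower. The Lip WT levels of both genes were higher in the unsplit set, and levels were not tested between the sets. Among the genes that fell, Acaa1b differed by 2.39 (SE 0.35, adjusted p = 0.000294), Cidec by 1.68 (SE 0.25, adjusted p = 0.000325) and Ear1 by 1.72 (SE 0.33, adjusted p = 0.00942), each with the smaller fall in unsplit Lip. Acaa1b had 3.42 to 11.5 CPM in the split Lip libraries, against 16.9 to 33.9 CPM in unsplit Lip. The differences of Cd74, the 3 class II chains, Mfge8, Ccl17, Acaa1b, Cidec and Ear1 passed in all 26 alternatives.

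**Figure D4:**
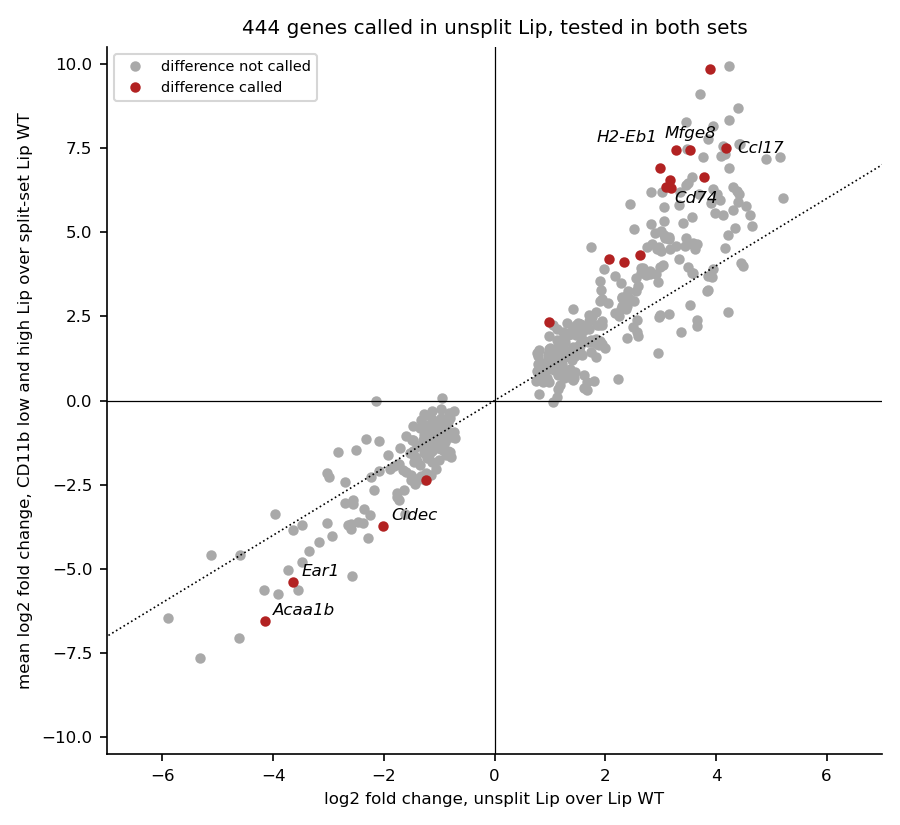
Log2 fold changes of the 444 genes called in unsplit Lip and tested in both sets, unsplit Lip over Lip WT across and the mean of CD11b low and CD11b high Lip over the split-set Lip WT upward, red where the difference was called; fitted folds of genes at 0 in a group depend on the prior count. Cd74, H2-Eb1, Mfge8 and Ccl17 lie above the dotted line of equal effects, and Acaa1b, Cidec and Ear1 below it.

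Binding of C/EBPβ was read from peak lists of 2 ChIP samples of wild-type C57BL/6 alveolar macrophages, so it describes the normal protein and not LIP alone. The authors' lists held 27105 and 22558 peaks, which merged into 29873 regions, 18752 of them in both lists. A region lay within 10 kb of 155 of 174 genes lower in Lip (89.1%, 95% Wilson interval 83.6 to 92.9%). The share was 168 of 293 for genes higher in Lip (57.3%, 51.6 to 62.9%) and 61.8% (60.8 to 62.8%) for genes not called. The interval of the lower genes lay above both others, and that of the higher genes overlapped that of the genes not called. Among genes with at least 20 CPM in 1 group the shares were 92.1% for lower, 62% for higher and 65.4% for genes not called. Genes higher in Lip could pass that level through their Lip mean alone, and lower genes through Lip WT alone. The shares were thus not matched for the level in wild-type cells, from which the peaks came. The order was the same at 2 kb, with 79.3%, 49.1% and 51.8%, and with peaks of a −log10 q of at least 10, with 77.6%, 43% and 46%. At 50 kb the shares were 93.7%, 82.3% and 82.7%. The median gene length was 26.4 kb for lower, 25.8 kb for higher and 23.3 kb for genes not called. Genes are not independent replicates, and the intervals cover counting error only.

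**Figure D5:**
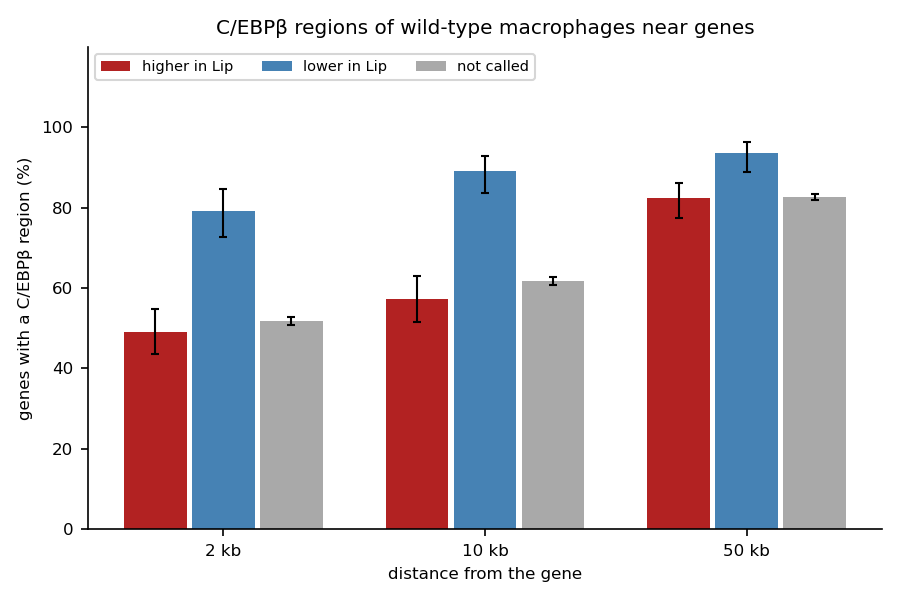
Share of genes with a C/EBPβ region of wild-type alveolar macrophages within 2, 10 or 50 kb, for genes higher in Lip, lower in Lip and not called, with 95% Wilson intervals. Within 10 kb the share was 57.3% for higher, 89.1% for lower and 61.8% for genes not called.

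Among the named falls, Flt1 and Lepr had 4 regions within 10 kb, Marco 3, Ear1, Apoc1 and Acaa1b 2, and Krt79 and G0s2 1. Cidec had 5 regions and Pparg, which was not called, 12. Lrg1 and Fabp4 had none within that distance. Among the named rises, Ccl17 and Cd74 had 1 region, and Mgl2, the C1q chains, Blnk, Mfge8, Ddah1, Pitx1, Npy and Cyp4a12a had none. Among genes with a matched promoter window, at least 1 window overlapped a region in 42 of 136 genes lower in Lip (30.9%). The same held for 26 of 212 genes higher in Lip (12.3%) and 1810 of 7503 of all tested genes (24.1%). The motif TTGCNNAA was in at least 1 window of 14.7%, 12.3% and 10% of these genes. The chromatin samples of the Lip mice were not analysed here.

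Around the mutated locus calls were counted in a window of 20 Mb to each side, where their share was not above that over all genes. Within 20 Mb of Cebpb on chromosome 2, 200 genes were tested, of which 4 were higher and 3 lower in Lip (3.5%, against 4.94% over all genes). The nearest called genes were Nfatc2 at 0.787 Mb (log2 fold change 3.17) and Pltp at -2.85 Mb (-1.60). Shorter windows were not tested.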

How the data were processed

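The deposited tables held raw counts for 22050 Ensembl genes. The submitters' processing notes list STAR 2.6.1a, featureCounts 1.6.3 and GRCm38 for them. Neither the use of strand nor any collapsing of molecule barcodes is stated there. The authors' ChIP peak lists gave a −log10 q for each peak and began at 5.02 and 5, and the same notes list MACS2 2.2.7.1 and mm10. The table's headers call the Lip libraries Lip_KO, and the labels give them as Lip.

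Analysis used edgeR 4.0.16 in R 4.3.3, with TMM scaling and a filter on low counts (filterByExpr, minimum count 10). Groups were compared by robust quasi-likelihood F tests, and a gene was called at a Benjamini-Hochberg adjusted p under 0.05. The SE of a log2 fold change was its size over the root of F. Each comparison was fitted on its own libraries, and differences between effects as interaction contrasts. Library totals ran from 1207014 to 5996039 counts in the 8 libraries. No 2 libraries agreed within sampling noise.

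Alternatives were DESeq2 1.42.0, other scalings and filters, a replicate block, each library left out in turn, and the 2 libraries with few mitochondrial counts left out or given a term. Peaks overlapping by 1 base were merged into regions, and genes were matched by symbol to RefSeq (Python 3.11.15, pandas 2.3.3). Named genes were Cebpb, the 12 largest rises and falls without overlap and with at least 20 CPM, up to 4 called members of each of 27 gene lists, the 5 largest interactions each way and preset markers, leaving out predicted, mitochondrial and sex-linked genes. The members and lists were chosen with earlier results of these data known.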

Additional observations from a re-analysis of the deposited data

Results flagged for a closer look

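The count of genes whose Lip effect differed from the effect of losing Cebpb was 707, and the count of genes whose Lip effect differed from that in the split set was 24. These differences were tested with edgeR as interaction contrasts. As differences of log2 fold changes, Lip minus Cebpb KO, the Lip effect lay above that of the knockout for Ear6 (9.21), Ddah1 (7.50), Epcam (6.96), Ffar2 (6.72), Car4 (5.63), Cebpb (5.37), Chil3 (4.81), Fabp1 (4.44), Siglecf (3.50), Ch25h (3.32), Cidec (2.86), Pparg (2.52), Ear1 (2.24), Lpl (1.28) and Abcg1 (1.18). It lay below for Apoe (-6.52), Lrg1 (-5.81), Cxcr2 (-4.99), G0s2 (-4.92), Flt1 (-4.84), C1qa (-4.53), C1qb (-3.87), C1qc (-3.41), Csf3r (-3.85), Itgam (-2.50), Nr1h3 (-1.73) and Jun (-1.67). The antigen presentation genes were also below, with Ciita at -4.16, H2-Eb1 at -3.56, H2-Ab1 at -3.53, H2-Aa at -3.15 and Cd74 at -2.44, as were Mfge8 at -2.48 and Ccl17 at -1.90. The differences of Car4, Ear1, Ccl17, Lpl, Itgam, Abcg1, C1qc and Chil3 did not pass in every alternative.

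Against the split set, the difference was -4.21 for H2-Eb1, -3.94 for H2-Ab1, -3.90 for Mfge8, -3.42 for H2-Aa, -3.31 for Ccl17, -3.29 for Cd74 and -1.72 for Ciita. It was 2.39 for Acaa1b, 1.72 for Ear1 and 1.68 for Cidec. The difference of Ciita was lost in 4 of 26 alternatives.

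Single libraries stood apart from the other 3 of their group by Dixon's criterion in 10 of the 134 gene and group pairs examined, and chance alone marks about 1 in 20. In Lip replicate 4 these were Abcg1 (1750 CPM), Itgax (720 CPM) and Cidec (67.7 CPM), and in Lip replicate 3 Krt79 (81.7 CPM). In Lip WT libraries they were Flt1 (431 CPM), Nr1h3 (42.9 CPM) and Fstl1 (8.58 CPM) in replicate 1, Csf2rb (892 CPM) and C1qc (3.89 CPM) in replicate 2, and Car4 (606 CPM) in replicate 3.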

How the results depend on the processing

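No named fold change that was called, as reported or in the alternative, reversed its direction under the alternatives run. Sign changes of fold changes called in neither were not counted. The 469 calls between Lip and Lip WT became 608 with DESeq2, 466 with its size factors, 551 without a filter on low counts, 378 with a filter at 30 counts, 659 with all 14 libraries in 1 fit, 601 with a term for the 2 libraries of low mitochondrial share, and 325 (without Lip replicate 1) to 535 (without Lip replicate 4) when 1 library was left out. Scaling by library size alone turned the split between Cebpb KO and Cebpb WT into 1028 higher and 2355 lower, from 1497 and 1298, and moved the median of all genes to -0.25. Of 69 named genes called in Lip, 51 kept the call throughout and 18 lost it in some setting, among them Siglecf, Itgax, Itgam, Bst2, Vwf, Mcm5 and Jun. For the difference between unsplit and split Lip, 24 calls became 121 with DESeq2, 301 without Lip replicate 4 and Lip WT replicate 3, and 16 (without split Lip WT replicate 1) to 117 (without Lip WT replicate 3) when 1 library was left out. The cause was not tested. Leaving out 1 library at a time gave 1894 to 3787 calls for Cebpb KO and 516 to 823 for Lip minus Cebpb KO.

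Same-numbered Lip and Lip WT libraries did not deviate together (correlations 0.037, 0.024, 0.143 and -0.155), so the numbers were not taken to pair them. With the replicate block 414 genes were called in Lip, 256 higher and 158 lower, 2675 in Cebpb KO, 669 for Lip minus Cebpb KO, 2210 in CD11b low, 3452 in CD11b high and 35 between unsplit and split Lip. Depth limits what can be seen below about 2.49 CPM, the floor of the shallowest Lip WT library.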
